A study of Mus musculus with 45 samples.

Results

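The subject is 10 mouse genes whose products shorten, mark or destroy maternal mRNA: Btg4, Cnot6l, Cnot7, Cnot1, Zfp36l2, Tut4, Tut7, Pabpn1l, Dcp1a and Dcp2. They were chosen by symbol for their known roles, and all 10 were found among the 26214 genes of the expression table. RNA was measured in fully grown oocytes (FGOs) from females of 3 to 4 weeks of age, with 5 FGOs per library and 3 libraries each of control and K36M, and in late two-cell embryos at 31 to 32 h post-fertilization, with 1 embryo in each library, 7 of them control and 8 K36M oocyte-derived. Control mothers carried H3f3b K36M-flox/+ without Cre, and K36M mothers carried H3f3b K36M-flox/+ with Gdf9-Cre. The floxed allele is therefore shared by both groups of mothers, and Cre, driven by the oocyte promoter of Gdf9, makes the oocyte express HA-tagged histone H3.3 with lysine 36 replaced by methionine (H3.3K36M) from the H3f3b locus. The FGO strain was a C57BL/6 and 129 hybrid. The embryos came from in vitro fertilization of superovulated hybrid oocytes with JF-1 sperm, and the labels do not give the genotype of each embryo. Control two-cell replicate 4, which had a technical problem, was left out.

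The oocyte stores mRNA with controlled poly(A) tails and has stopped transcribing once it is fully grown, so its later changes in mRNA content come from storage, tail length and decay. During meiotic maturation and after fertilization most of this store is removed: the CCR4-NOT complex shortens the tail, adaptors such as BTG4 and ZFP36L2 bring it to its targets, TUT4 and TUT7 add uridines to short tails, and DCP2 with DCP1A removes the cap. The late two-cell embryo has passed the major activation of its own genome, and the mRNA it holds is a mixture of what is left from the oocyte and what it has newly made.

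Expression is given as TPM, a transcript measure corrected for the length of the gene, with 1 total for all libraries. A TPM value is thus a share of the library's mRNA, and it keeps no record of the number of reads behind it. An oocyte pool and a single embryo also differ in the amount of starting material and in amplification, so stage and kind of library cannot be told apart. Each library held 5 FGOs or 1 embryo, but TPM does not give the amount of RNA per oocyte or embryo. Changes are differences of means of log2(TPM + 1), tested with limma and adjusted over all genes tested by the Benjamini-Hochberg method. A gene is called at an adjusted p under 0.05. Nothing in the labels says that libraries came from separate animals, so p-values measure only the spread between these libraries.

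Short sequences near the end of the mRNA are where many decay and tail-length factors bind, and 4 of the 10 genes carry one of the motifs searched in the last 100 bases of their RefSeq Select transcript (GRCm38.p6). The motifs were the cytoplasmic polyadenylation element (CPE; TTTTAT or TTTTAAT), the AU-rich element (TATTTAT) and the Pumilio element (TGTANATA), on the mRNA strand only. The sequences are shown because such elements are known to set tail length and stability of stored mRNA. Each is a 30-base window, 5′ to 3′, with the motif in capitals, and stands in this order: Btg4 at chr9:51119860-51119889 (+, CPE), Dcp1a at chr14:30526985-30527014 (+, CPE), Cnot7 at chr8:40492554-40492583 (−, Pumilio) and Tut7 at chr13:59771899-59771928 (−, AU-rich element).
Btg4: tgatatcatctaTTTTATaaaagtggtact
Dcp1a: tttcatcctaaaTTTTATatgtttgcaaat
Cnot7: ttttaaagctttTGTAAATAaaggcttcaa
Tut7: actatgccggttTATTTATcattttgaaat

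The CPE of Btg4 begins 53 bases from the 3′ end and its polyadenylation hexamer (AATAAA) 28 bases from it. Dcp1a holds 2 CPEs in this stretch, of which the one shown begins 60 bases from the end. The Pumilio element of Cnot7 shares its last bases with the hexamer, which begins 30 bases from the end. Over 17984 genes, 18.2% held a CPE in the same stretch, 4.42% an AU-rich element, 4.45% a Pumilio element and 67.9% the hexamer, which 8 of the 10 genes held. A match is a description of the letters and not a proven site. The median log2 change from control FGO to control two-cell embryo was −0.13 over 2703 tested genes with a CPE and 0.02 over those without, while among genes with a mean of at least 10 TPM in control FGOs the order was the opposite, with −0.61 and −0.69. The second pair rests on genes picked for a high FGO level.

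The genes lie apart in the mouse genome, and the 3 on chromosome 8 are far from each other. In GRCm38.p6, Btg4 is at chr9:51116001-51119924 (+) with 5 exons, Cnot6l at chr5:96070333-96161990 (−) with 12, Cnot7 at chr8:40492538-40511754 (−) with 7, Cnot1 at chr8:95718931-95807445 (−) with 49 and Zfp36l2 at chr17:84183924-84187947 (−) with 2. Tut4 is at chr4:108459410-108559415 (+) with 31 exons, Tut7 at chr13:59771876-59823110 (−) with 27, Pabpn1l at chr8:122619471-122622735 (−) with 7 and Dcp1a at chr14:30479565-30527056 (+) with 10, while Dcp2 is on chromosome 18. Exons of 4 genes overlap those of a gene on the other strand. Tut7 shares 984 bases with the noncoding RNA gene Etohd2 and Cnot1 shares 781 with 4930513N10Rik and 77 with Setd6, whereas Cnot6l shares 25 with Gm52799 and Cnot7 shares 13 with Vps37a. The strand setting of the counting is not given in the sources used here, so the TPM of these 4 genes, and of Tut7 and Cnot1 above all, may include reads of the overlapping gene.

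The libraries matched their labelled stage. The summed TPM of 10 oocyte markers, such as Gdf9 and the zona pellucida genes, was 17008 to 17160 in control and 14808 to 15898 in K36M FGOs, and 671 to 2000 and 658 to 1815 in the corresponding embryos. The 8 two-cell markers, the Zscan4 genes among them, summed to 34.5 to 73.9 TPM in all FGOs and to 270 to 2440 in all embryos. H3f3b, the targeted gene, had 265, 307 and 308 TPM in control and 377, 399 and 418 in K36M FGOs, with no overlap (log2 change 0.44 ± 0.086 SE, limma adjusted p = 0.281), while it spanned 301 to 968 TPM (median 389) and 385 to 986 TPM (median 597) in the embryos. TPM cannot separate the mutant from the wild-type allele. The 12 granulosa and cumulus markers summed to 127 to 143 TPM in control and 139 to 207 in K36M FGOs, and to 146 to 268 and 77.8 to 397 in the embryos. Their part in the results was not tested. Stroma markers summed to at most 8.86 TPM in FGOs and 56.7 in embryos, and blood markers to at most 3.21 and 29.9. Embryos had 10894 to 17329 genes above 0 against 16707 to 18559 in FGOs, and their median rank correlation with libraries of the same stage was 0.718 to 0.811 against 0.935 to 0.948. Control embryos had 12115 to 17329 genes above 0 and K36M oocyte-derived ones 10894 to 14879. Their correlations were 0.750 to 0.811 and 0.718 to 0.788.

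In control FGOs the 10 genes spanned a wide range of levels, with the adaptor and the decapping cofactor at the top and the uridylyltransferases at the bottom. The order by mean TPM was Btg4, Dcp1a, Cnot7, Pabpn1l, Cnot6l, Cnot1, Dcp2, Zfp36l2, Tut7 and Tut4, from 3498 down to 5.34 TPM. Only Zfp36l2 and Tut7 were neighbours whose libraries overlapped. In K36M FGOs Cnot7 and Pabpn1l also overlapped. In two-cell embryos Btg4 still had the highest mean and Pabpn1l the lowest, but every pair of neighbours overlapped except Zfp36l2 and Pabpn1l in controls. The FGO libraries were tight, with a median SD of 0.084 (control) and 0.14 (K36M) on the log2 scale over the 10 genes, while in the embryos it was 0.64 and 0.74. Over all genes with a mean of at least 1 TPM in the group, the median SD was 0.185 and 0.245 in FGOs and 1.26 and 1.45 in embryos.

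**Figure D1:**
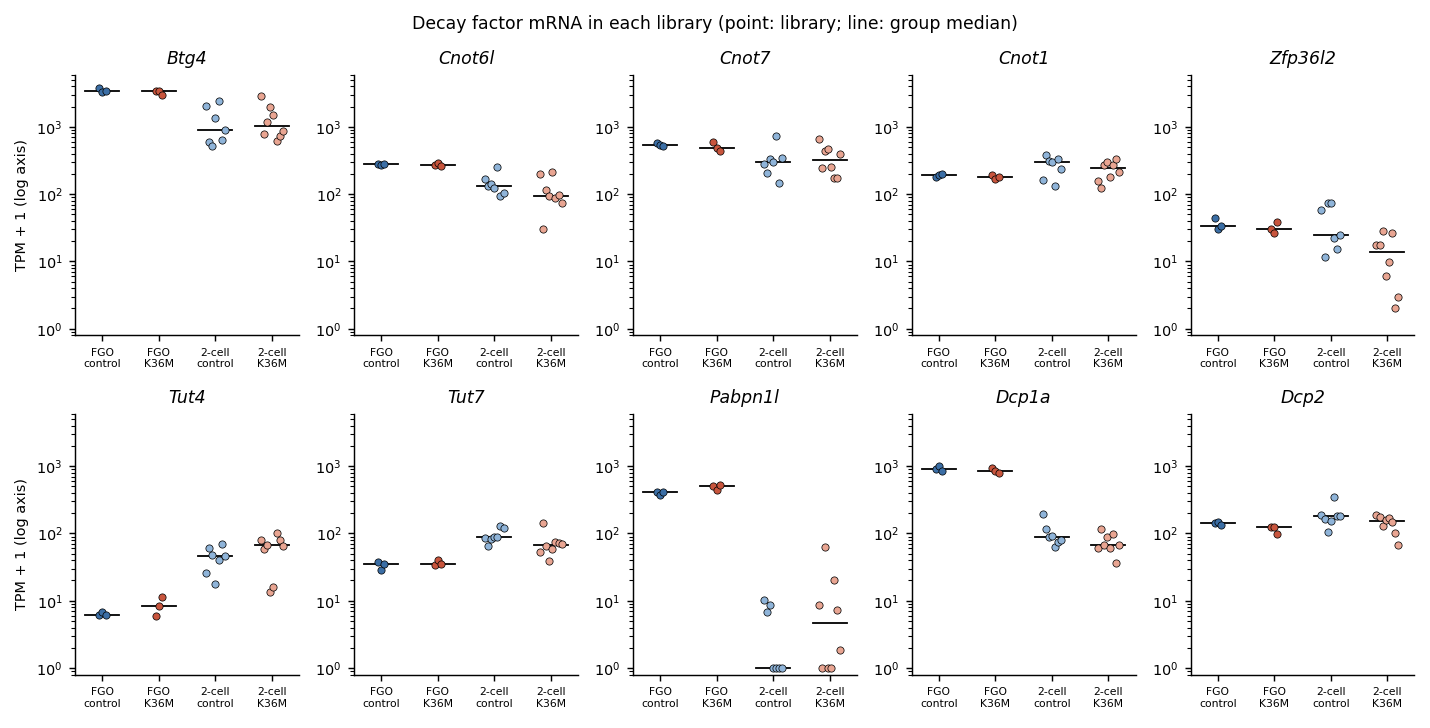
TPM + 1 (log axis) of each of the 10 genes in every library, by stage and genotype; points are libraries (3 FGO pools of each genotype, 7 embryos from control and 8 from K36M oocytes) and lines are group medians. Btg4, Pabpn1l and Dcp1a drop between the stages and Tut4 rises, while the control and K36M points of each stage lie close together or overlap.

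From FGO to two-cell embryo the 10 mRNAs went separate ways. In controls Pabpn1l, Dcp1a and Btg4 fell, Tut4 and Tut7 rose, and Cnot6l, Cnot7, Cnot1, Zfp36l2 and Dcp2 did not pass the test. This makes 5 of 10 called, 2 higher and 3 lower, against 26.6% of the 17358 genes tested (13.4% higher and 13.2% lower), and 6 of 10 with no overlap between the stages against 32.3%. In the K36M groups Pabpn1l, Dcp1a, Btg4 and Cnot6l fell and Tut4 rose, again 5 of 10 against 29.3% of genes (10.8% higher and 18.6% lower), and the stages did not overlap for these 5, against 26.2%. At an unadjusted p under 0.05 there were 7 in each genotype, against 37.5% and 39.1% of genes. The median change of the 10 genes was −0.52 in controls and −1.08 in K36M, beside 0.00 and −0.18 over all genes tested.

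Btg4, the adaptor that joins CCR4-NOT to maternal mRNA, had the highest level of the 10 genes in the oocyte. It had 3351, 3422 and 3722 TPM in control FGOs, and 515 to 2409 TPM (median 885) in control two-cell embryos. Every embryo lay below every oocyte pool, although the embryos differed widely among themselves. The fall was −1.78 ± 0.43 (SE) on the log2 scale (limma adjusted p = 0.00341, and at most 0.0489 over the alternatives), which left 34.4% of the FGO mean. K36M FGOs had 3019, 3414 and 3416 TPM and their embryos 625.4 to 2845 TPM (median 1037). These stages did not overlap either, with a fall of −1.502 ± 0.42 (limma adjusted p = 0.00900) to 40.1% of the FGO mean, which missed the threshold after quantile normalization (log2 change −1.04, limma adjusted p = 0.0806, the highest over the alternatives; the lowest was 3.56e-05). It kept the highest mean of the 10 genes in both kinds of embryo.

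The catalytic deadenylases of the complex changed less on average and were not called in controls. Cnot6l encodes the nuclease subunit that oocytes favour over its paralog Cnot6, and it had 267, 275 and 282 TPM in control FGOs and 91.9 to 252 TPM (median 132) in control embryos. All control embryos were below all pools, but the change of −0.99 ± 0.43 missed the threshold (limma adjusted p = 0.0868, from 0.000101 to 0.205 over the alternatives). It passed when control embryo 6, the highest, was left out (−1.14, adjusted p = 0.0457), when K36M embryo 2 was left out of the joint fit (adjusted p = 0.0317), and when the control libraries were fitted alone (adjusted p = 0.0238). In K36M it went from 257, 270 and 290 TPM to 29.3 to 215 TPM (median 93.7). Again no embryo reached the pools, and here the change of −1.47 ± 0.42 was called (limma adjusted p = 0.00950, at most 0.0477 over the alternatives).

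Cnot7, the other nuclease of the complex, had 526.4, 536 and 581 TPM in control FGOs and 148 to 741 TPM (median 299) in control embryos. Embryo 6, at 741 TPM, was above all FGO libraries and the other embryos were below them. The change was −0.87 ± 0.40 (limma adjusted p = 0.110, from 0.000414 to 0.266 over the alternatives), and it was −1.08 (adjusted p = 0.0266) without that embryo. In K36M, levels went from 442, 487 and 595 TPM to 170 to 652 TPM (median 323), with overlap (log2 change −0.68 ± 0.39, limma adjusted p = 0.202, from 0.0214 to 0.452 over the alternatives).

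Cnot1 encodes the scaffold on which the subunits assemble, and its mRNA was not called in either genotype in the joint fit. It had 177, 189 and 197 TPM in control FGOs and 131 to 382 TPM (median 302) in control embryos, of which 2 lay below the pools and 5 above. The log2 change was 0.41 ± 0.33 (limma adjusted p = 0.386, from 0.00645 to 0.869 over the alternatives), and it passed the threshold with array weights (0.59) alone. In K36M it went from 168, 176 and 193 TPM to 121 to 327 TPM (median 244), a change of 0.29 ± 0.32 (limma adjusted p = 0.552).

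Zfp36l2, an RNA-binding protein that recruits CCR4-NOT to AU-rich mRNA and is needed for oocyte maturation, was low in the oocyte and uneven among embryos. Control FGOs had 29.2, 32.6 and 43.7 TPM. Control embryos had 10.5, 14.5, 21.5, 23.8, 58.1, 72.9 and 73.0 TPM, so that 4 were below all the pools and 3 above them. The mean log2 change was −0.17 ± 0.78 (limma adjusted p = 0.908) and had no settled direction. It was 0.074 without control embryo 2, 0.0021 without control embryo 7 and 0.43 with the replicate number as a block, and the mean TPM of the embryos was 111% of that of the FGOs. K36M FGOs had 25.3, 29.1 and 37.9 TPM, and their embryos had 1.03, 1.93, 4.99, 8.94, 16.3, 16.7, 25.3 and 27.1 TPM. Of these, 7 were below the pools and 1 within their range, and the change of −1.69 ± 0.77 was not called (limma adjusted p = 0.102, from 0.0114 to 0.349 over the alternatives).

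The terminal uridylyltransferases rose in controls. Tut4 had 5.08, 5.15 and 5.80 TPM in control FGOs and 16.5 to 69.8 TPM (median 45.6) in control embryos. The lowest embryo had more than the highest pool, and the change was 2.68 ± 0.62 (limma adjusted p = 0.00229, at most 0.0151 over the alternatives), to 811% of the FGO mean. In K36M it rose from 4.95, 7.23 and 10.3 TPM to 12.6 to 102 TPM (median 66.1), also with no overlap (2.60 ± 0.61, limma adjusted p = 0.00222, at most 0.0228 over the alternatives).

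Tut7, which shares its activity with Tut4, started from a higher level. It had 27.6, 33.98 and 36.03 TPM in control FGOs and 63.8 to 127 TPM (median 88.1) in control embryos, again apart, with a change of 1.46 ± 0.37 (limma adjusted p = 0.00510, at most 0.0400 over the alternatives). In K36M it had 32.5, 33.9 and 39.5 TPM in FGOs and 37.4 to 143 TPM (median 67.4) in embryos. Only the lowest embryo, number 4, lay within the range of the pools. The change of 0.90 ± 0.37 was not called (limma adjusted p = 0.0682, from 0.0115 to 0.199 over the alternatives), and it was 1.01 (adjusted p = 0.0348) without that embryo.

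Pabpn1l, the oocyte and early embryo paralog of the nuclear poly(A)-binding protein Pabpn1 and a partner of BTG4, showed the widest change of the 10. It had 376, 414 and 417 TPM in control FGOs. In control embryos it was listed at 0 in 4 of 7 and at 5.80, 7.58 and 9.19 TPM in the other 3. K36M FGOs had 442, 514 and 520 TPM, and K36M oocyte-derived embryos were listed at 0 in 3 of 8 and at 0.850, 6.37, 7.52, 19.03 and 61.3 TPM in the others. All embryos were below all pools in both genotypes. On the log2(TPM + 1) scale the change was −7.34 ± 1.12 in controls (limma adjusted p = 2.7e-05) and −6.80 ± 1.10 in K36M (limma adjusted p = 5.0e-05). Because of the zeros its size depends on the pseudocount, and with 0.1 in place of 1 it was −9.30 and −8.22.

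Of the decapping pair, Dcp1a fell and Dcp2 did not pass the test. Dcp1a, the activator of the decapping enzyme and the second most abundant of the 10 in oocytes, had 836, 901 and 1009 TPM in control FGOs and 62.5 to 197 TPM (median 86.5) in control embryos. The highest embryo was far below the lowest pool. The fall of −3.26 ± 0.34 (limma adjusted p = 1.1e-07, at most 2.1e-05 over the alternatives) left 11.04% of the FGO mean. In K36M it fell from 779, 840 and 936 TPM to 35.6 to 115 TPM (median 66.8), by 3.58 ± 0.33 on the log2 scale (limma adjusted p = 1.6e-08), to 8.69%.

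Dcp2, the enzyme that cuts the cap, was not called. It had 132, 144 and 147 TPM in control FGOs and 105 to 342 TPM (median 178) in control embryos, of which 1 lay below the pools and 6 above. The change was 0.33 ± 0.34 (limma adjusted p = 0.508). In K36M it went from 96.6, 125 and 126 TPM to 66.8 to 190 TPM (median 154), with overlap and a change of 0.23 ± 0.33 (limma adjusted p = 0.644).

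**Figure D2:**
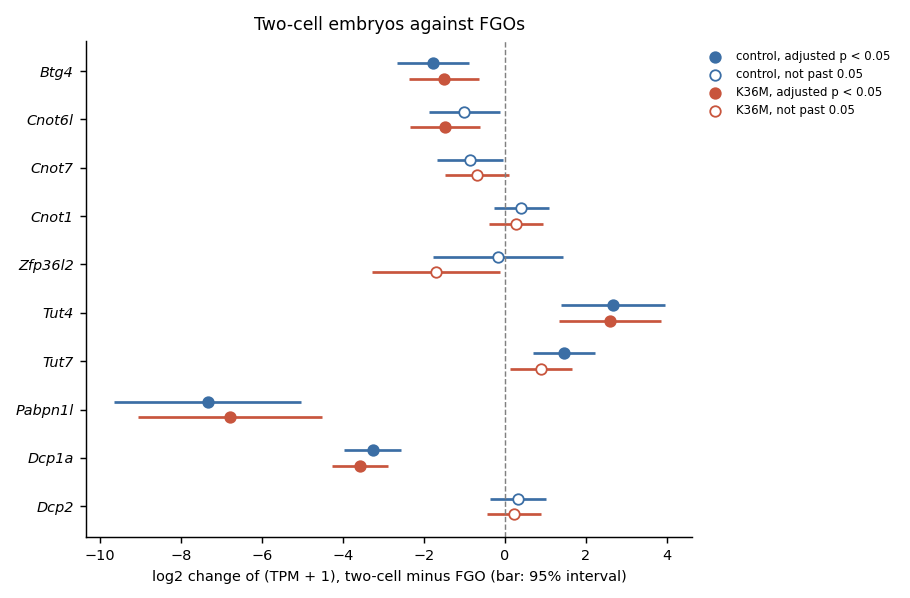
Log2 change of (TPM + 1) from FGO to two-cell embryo for each gene, in control (blue) and K36M (red) libraries, with 95% intervals; filled points have an adjusted p under 0.05 over all genes and open points do not. Pabpn1l lies farthest to the left at −7.34 and −6.80, Dcp1a next at −3.26 and −3.58, and Tut4 farthest to the right at 2.68 and 2.60.

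Whether the stage change itself differed between the genotypes was tested as an interaction in the same fit. None of the 10 genes was called by limma, none had an unadjusted p under 0.05, and of all genes 0.0% were called and 1.15% had an unadjusted p under 0.05. The estimate farthest from 0 was that of Zfp36l2, at −1.52 ± 1.09 (95% interval −3.78 to 0.74). For Btg4 it was 0.27 ± 0.60 (−0.97 to 1.52) and for Dcp1a −0.32 ± 0.47 (−1.30 to 0.66). The calls of Cnot6l in K36M alone and of Tut7 in control alone were therefore not shown to differ between genotypes, with estimates of −0.48 ± 0.60 and −0.57 ± 0.52.

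The rest of the decay machinery was examined through 105 further genes in 10 lists, of which 103 were tested. In controls 16 rose and 14 fell, which is 29.1% against 26.6% of all genes, with a median change of 0.06 beside 0.00. In K36M 14 rose and 18 fell, 31.1% against 29.3%, with a median of −0.31 beside −0.18. The machinery as a whole was thus called about as often as all genes. In controls, 5 of the 10 lists held calls in both directions and the other 5 in 1 direction only.

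Among the 8 other CCR4-NOT subunits, 1 rose and 3 fell in controls, or 50% called against 26.6% of all genes (13.4% higher and 13.2% lower). Cnot8, the paralog of Cnot7, rose from 172 to 183 TPM in FGOs to 220 to 377 TPM in embryos (log2 change 0.70 ± 0.22, limma adjusted p = 0.0212). Cnot11, a subunit of the N-terminal module, fell from 154 to 173 TPM to 9.90 to 50.1 TPM (−2.78 ± 0.74, limma adjusted p = 0.00705), and Cnot4, a ubiquitin ligase, fell from 122 to 128 TPM to 23.6 to 75.9 TPM (−1.53 ± 0.43, limma adjusted p = 0.0105). Without control FGO library 1, Cnot8 and Cnot4 were not called (limma adjusted p = 0.0801 and 0.0528), and 2844 of 17375 genes were. Of the 5 BTG and TOB relatives of Btg4, 4 rose and none fell in controls, and 2 rose in K36M, where 10.8% of all genes rose. Btg1 went from 10.8 to 10.9 TPM to 72.5 to 128 TPM (3.12 ± 0.55, limma adjusted p = 0.000146) and Btg3 from 1.11 to 1.49 TPM to 5.20 to 29.3 TPM (2.67 ± 0.87, limma adjusted p = 0.0246). The other calls were Tob1 and Tob2, named after their values were seen. In controls Btg1 alone kept its call under every alternative (limma adjusted p at most 0.00195). The highest was 0.0929 for Btg3, 0.0829 for Tob1 and 0.543 for Tob2. Of the 8 deadenylases outside the complex, the poly(A)-specific ribonuclease Parn was the sole one called in controls, which is 12.5% of the list (−1.66 ± 0.52, limma adjusted p = 0.0206). In K36M Parn was not called (−0.81 ± 0.51, limma adjusted p = 0.258), and Angel1, named after its values were seen, was (−2.71, limma adjusted p = 0.0119, and up to 0.0974 over the alternatives).

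Of 17 other genes of decapping and 5′-to-3′ decay, 4 fell and none rose. Patl2, an oocyte relative of the decapping scaffold Patl1, went from 57.9 to 75.3 TPM to 0 in 5 of 7 control embryos and at most 11.1 TPM (−5.48 ± 0.90, limma adjusted p = 6.9e-05), and Lsm5, of the ring that binds oligoadenylated ends, went from 151 to 157 TPM to between 0 and 260 TPM (−3.65 ± 1.28, limma adjusted p = 0.0374). That is 23.5% called, against 26.6% of all genes. Of 16 exosome genes 2 rose and none fell, or 12.5% called. Dis3, a catalytic subunit, rose from 12.9 to 23.0 TPM to 69.6 to 459 TPM (3.34 ± 0.47, limma adjusted p = 9.4e-06), and Exosc6, a core subunit, rose by 2.66 ± 0.54 (limma adjusted p = 0.00068).

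Of 9 other enzymes that add nucleotides to the tail 2 rose and 3 fell, or 55.6% called against 26.6% of all genes. Tent5c fell from 1260 to 1320 TPM to 81.1 to 366 TPM (−2.89 ± 0.53, limma adjusted p = 0.000218) and the mitochondrial poly(A) polymerase Mtpap fell by 2.62 ± 0.76 on the log2 scale (limma adjusted p = 0.0127). Tent5a rose from under 1 TPM to 2.56 to 103 TPM (3.59 ± 1.16, limma adjusted p = 0.0232) and Tent4a rose by 1.06 ± 0.24 (limma adjusted p = 0.00173). Of 6 other poly(A)-binding proteins 3 rose and 1 fell, or 66.7% called. The cytoplasmic Pabpc1 rose from 63.2 to 89.2 TPM to 565 to 1239 TPM (3.80 ± 0.24, limma adjusted p = 1.9e-11) and the nuclear Pabpn1 by 1.68 ± 0.20 (limma adjusted p = 1.0e-06), while the oocyte form Pabpc1l fell from 281 to 349 TPM to 8.52 to 71.4 TPM (−3.62 ± 0.87, limma adjusted p = 0.00311).

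Among 19 other 3′ UTR-binding regulators 2 rose and 1 fell, so that 15.8% were called against 26.6% of all genes. Cpeb1, the protein that binds the CPE, fell from 500.5 to 537 TPM to 9.98 to 58.9 TPM (−4.26 ± 0.78, limma adjusted p = 0.00023), whereas its relative Cpeb4 rose by 0.76 ± 0.25 (limma adjusted p = 0.0259) and the Pumilio protein Pum2 by 1.08 ± 0.26 (limma adjusted p = 0.00321). Of 8 m6A readers 25% were called: Igf2bp2 fell from 709 to 731 TPM to 54.4 to 156 TPM (−2.999 ± 0.35, limma adjusted p = 6.8e-07) and Igf2bp1 rose from under 1 TPM to 31.0 to 57.2 TPM (4.88 ± 0.56, limma adjusted p = 5.3e-07). Of 7 GW182 and Argonaute genes, Ago1 alone was called, or 14.3%, and it rose by 3.09 ± 0.71 (limma adjusted p = 0.0022).

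Of the 23 other decay genes named for the control stage comparison, 8 lost their call under at least 1 alternative, and each of these did so when a control FGO library was left out. Their highest adjusted p from limma over the alternatives was 0.0599 for Cnot4 (with the replicate number as a block), 0.0787 for Parn, 0.0852 for Mtpap, 0.0858 for Tent5a, 0.0929 for Btg3, 0.115 for Lsm5, 0.196 for Cpeb4 and 0.207 for Cnot8. Of the 3 control FGO libraries, Cnot4 lost its call without library 1 (limma adjusted p = 0.0528). The other 7 genes lost theirs without any 1 of the 3, at an adjusted p from limma of 0.0515 to 0.111, and Lsm5 also without control embryo 3, 5 or 6 (0.0622 to 0.0686). The highest values of Cpeb4 and Cnot8, 0.196 and 0.207, came with median-of-ratios scaling. Over all genes, too, calls fell, from 4615 to 2844, 2872 and 2877 when control FGO library 1, 2 or 3 was left out.

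**Figure D3:**
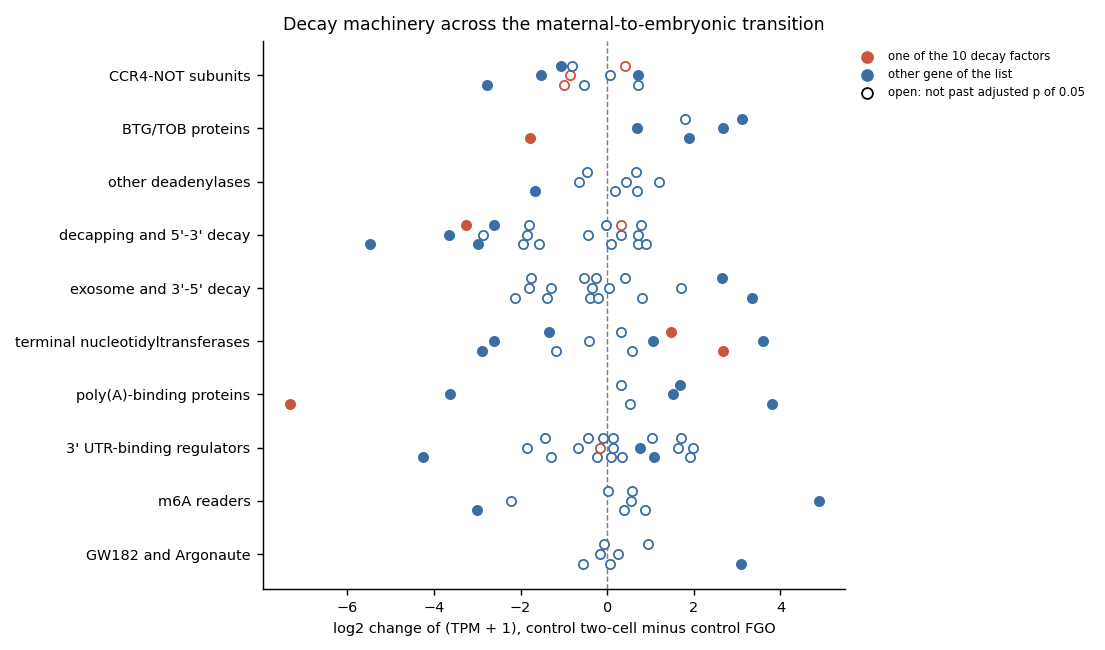
Log2 change of (TPM + 1) from control FGO to control two-cell embryo for the 10 genes (red) and the other tested genes of each decay list (blue); filled points have an adjusted p under 0.05. The points run from 4.88 for Igf2bp1 to −7.34 for Pabpn1l, and 5 of the 10 lists hold other genes called in both directions.

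Set against their closest relatives within each library, several of the 10 genes stood lower in the embryos than in the FGOs. These pairs were chosen with the values known and are given as a description, in log2(TPM + 1) units. Pabpn1l was above Pabpn1 by 0.23 to 0.42 in the 3 control FGO libraries and below it by 6.43 to 10.6 in the 7 control embryos, with Pabpn1 at 312 to 320 and 792 to 1528 TPM. In K36M it was above by 0.40 to 0.86 and below by 4.53 to 10.7. The ranking of this pair was thus opposite in every oocyte pool and every embryo.

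Btg4 exceeded Btg1 by 8.13 to 8.31 in control FGOs and by 2.04 to 4.74 in control embryos, and so stayed the higher of the pair in each library. Dcp1a exceeded Dcp1b by 7.87 to 8.83 and then by 1.97 to 6.24, and Cnot6l exceeded Cnot6 by 2.76 to 2.95 and then by 0.28 to 2.91. In K36M, Cnot6l minus Cnot6 was 2.49 to 3.04 in FGOs and −1.49 to 2.97 in embryos, with Cnot6l the higher in 7 of 8 and the ranges overlapping. Cnot7 exceeded Cnot8 by 1.52 to 1.72 in control FGOs, whereas in control embryos the difference ran from −1.03 to 1.75, with Cnot7 the higher in 4 of 7. Tut4 was below Tut7 in every FGO library and every control embryo, and above it in 4 of 8 K36M oocyte-derived embryos.

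**Figure D4:**
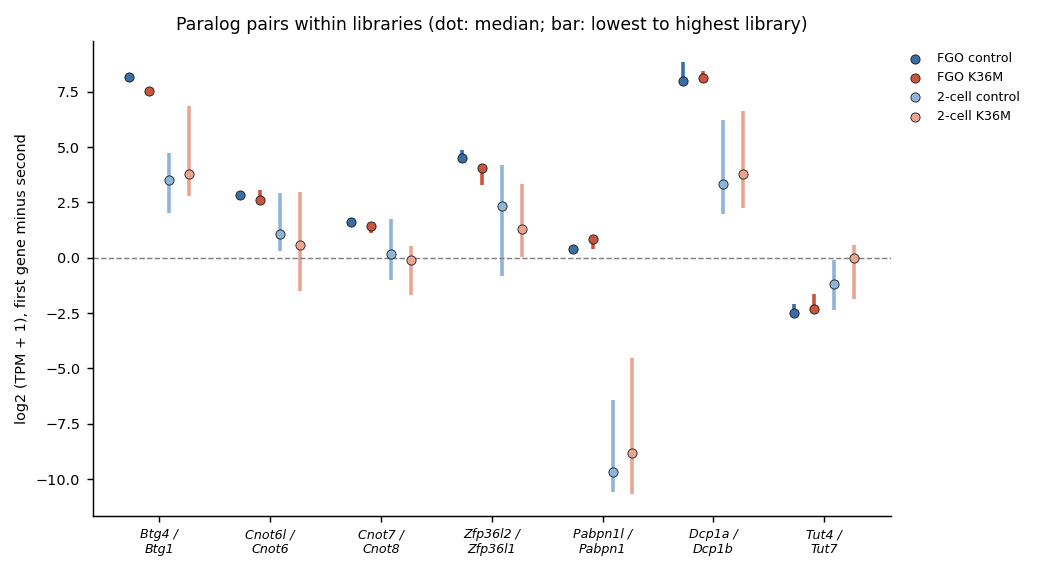
Difference in log2(TPM + 1) between paired genes within each library, the first named minus the second; dots are group medians and bars run from the lowest to the highest library of the group. Pabpn1l lies above Pabpn1 in all FGO pools and below it in all embryos, while Btg4 lies above Btg1 throughout.

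No difference between K36M and control passed the test for any of these mRNAs. In FGOs none of the 10 was called between K36M and control by limma (adjusted p from 0.383 to 0.966), where 0.00726% of 13775 genes, a single gene, was called. That share rested on K36M library 1, without which 300 of 13799 genes were called (191 higher and 109 lower), and still none of the 10. At an unadjusted p under 0.05 there were 2, Pabpn1l and Dcp2, against 10.5% of all genes, and for the same 2 the libraries did not overlap, against 15.6%. The smallest p that an exact permutation test of 3 against 3 allows is 0.1. The median change of the 10 was −0.08, beside 0.01 over all genes.

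Pabpn1l had 442, 514 and 520 TPM in K36M against 376, 414 and 417 TPM in control FGOs. All K36M pools were the higher, by 0.29 ± 0.087 on the log2 scale (limma adjusted p = 0.383). Dcp2 had 96.6, 125 and 126 TPM against 132, 144 and 147 TPM. Here all K36M pools were the lower, by −0.29 ± 0.12 (limma adjusted p = 0.457). Neither passed the adjusted threshold under any alternative, with adjusted p of at least 0.171 and 0.162.

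For the other 8 genes the K36M and control pools overlapped. Btg4 differed by −0.09 ± 0.071 (95% interval −0.25 to 0.07), Dcp1a by −0.10 ± 0.093 (−0.32 to 0.11), Cnot7 by −0.12 ± 0.11 (−0.36 to 0.13) and Cnot6l by −0.01 ± 0.077 (−0.19 to 0.16). The intervals were wider for the low ones, with Tut4 at 0.38 ± 0.29 (−0.29 to 1.04), Zfp36l2 at −0.19 ± 0.20 (−0.64 to 0.27) and Tut7 at 0.12 ± 0.15 (−0.23 to 0.47).

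None of the 97 other decay genes tested in FGOs was called either, and 10 had an unadjusted p under 0.05, which is 10.3% against 10.5% of all genes. Those with the smallest unadjusted p and no overlap were Exosc5 (14.5, 15.9 and 17.0 TPM in K36M against 5.99, 8.48 and 8.83 TPM, log2 change 0.95 ± 0.22), the nucleotidyltransferase Tent5d (0.939, 1.23 and 2.69 against 5.11, 5.54 and 12.7 TPM, −1.70 ± 0.41), Btg1 (16.4, 17.2 and 17.6 against 10.8, 10.8 and 10.9 TPM, 0.61 ± 0.17), Cpeb1 (396, 415 and 482 against 500.5, 529 and 537 TPM, −0.28 ± 0.087) and Cnot9 (72.4, 93.9 and 95.8 against 63.4, 64.6 and 68.8 TPM, 0.40 ± 0.13). Their limma adjusted p ran from 0.306 to 0.396. Without K36M library 1, where calls over all genes also increased, Cnot9 (log2 change 0.53, limma adjusted p = 0.0452) and Cpeb1 (−0.37, limma adjusted p = 0.0455) passed the threshold, as did the GW182 gene Tnrc6a (0.93, limma adjusted p = 0.0406), which is named here after its values were seen. The other 3 did not pass under any alternative, with an adjusted p of at least 0.0591.

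In two-cell embryos none of the 10 was called between K36M oocyte-derived and control (limma adjusted p from 0.578 to 0.967), as was the case for all 17362 genes (0.0%). At an unadjusted p under 0.05 there was 1, Zfp36l2, against 7.71% of genes. None of the 10 kept the groups apart, against 0.115% of genes. The median over all genes was itself shifted to −0.26 as deposited (−0.04 after quantile normalization and −0.17 after median-of-ratios scaling), and the median of the 10 was −0.29. These comparisons use the same control embryos as the stage comparison, and the values of Zfp36l2 given above serve both. It had 1.03 to 27.1 TPM (median 12.6) in K36M oocyte-derived and 10.5 to 73.0 TPM (median 23.8) in control embryos, so that 3 control embryos lay above all the K36M ones and 4 K36M ones below all the controls. The difference was −1.70 ± 0.69 (limma adjusted p = 0.578, from 0.450 to 0.828 over the alternatives).

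The intervals of the embryo comparison were wide for every gene. They ran from −0.53 to 0.89 for Btg4 (estimate 0.18), from −1.27 to 0.29 for Cnot6l (−0.49), from −0.62 to 0.75 for Cnot7 (0.06), from −1.15 to 0.30 for Dcp1a (−0.42) and from −1.19 to 2.84 for Pabpn1l (0.83). The Pabpn1l estimate was 0.28 without K36M embryo 3, at most 1.17 with another library left out, and 1.38 with a pseudocount of 0.1 or after quantile normalization. Among the 103 other decay genes tested none was called and 10 had an unadjusted p under 0.05, which is 9.71% against 7.71% of all genes, and none of those kept the groups apart.

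**Figure D5:**
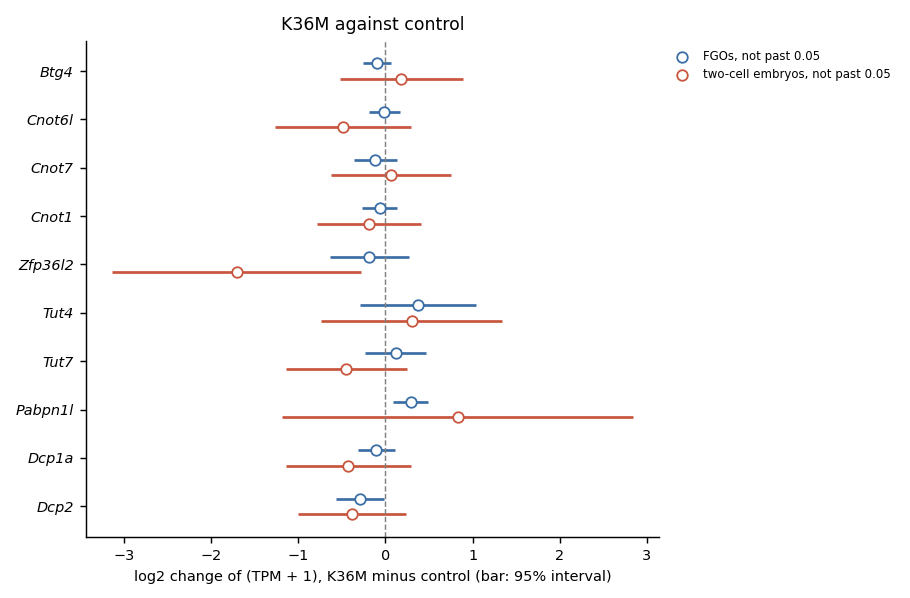
Log2 change of (TPM + 1) of K36M against control for each gene, in FGOs (blue) and two-cell embryos (red), with 95% intervals; open points have an adjusted p of at least 0.05 over all genes. No gene is called in either stage, and the intervals of the embryos are wider than those of the FGO pools throughout.

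The two-cell embryos of a group differed widely in Btg4, which made it possible to ask which mRNAs varied with it. Over the 15 embryos, as deviations of log2(TPM + 1) from the group means, 9 correlations with the other 9 genes were computed with 100000 permutations each. Cnot7 had Pearson's r = 0.73 (permutation p = 0.00232, adjusted p = 0.0209) and Spearman's rho = 0.68 (permutation p = 0.00669, adjusted p = 0.0602), and it correlated more with Btg4 than 98.9% of 9702 genes did. Within control embryos r was 0.64 and within K36M ones 0.82. Dcp2 had r = 0.61 (permutation p = 0.0148, adjusted p = 0.0443) with rho = 0.54 (permutation p = 0.0392, adjusted p = 0.102), and Cnot6l had r = 0.61 (permutation p = 0.0136, adjusted p = 0.0443) with rho = 0.48 (permutation p = 0.0727, adjusted p = 0.131). Within control and K36M embryos r was 0.74 and 0.49 for Dcp2 and 0.68 and 0.63 for Cnot6l.

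The 2 embryos farthest from the median of Btg4 were control embryo 6 and K36M embryo 1. Leaving them out narrows the range of Btg4, which by itself can lower r. A lower r therefore does not show that the relations rested on these embryos. Without them r was 0.51 for Cnot7 (permutation p = 0.0768, n = 13), 0.38 for Dcp2 (permutation p = 0.207) and 0.40 for Cnot6l (permutation p = 0.186). Tut4 ran the other way, with r = −0.52 (permutation p = 0.0469, adjusted p = 0.0845) and rho = −0.53 (permutation p = 0.0452, adjusted p = 0.102), and r = −0.83 without those embryos (permutation p = 0.00106). Cnot1 had r = −0.56 (permutation p = 0.0315, adjusted p = 0.0708) and rho = −0.57 (permutation p = 0.028, adjusted p = 0.102), and −0.33 without them (permutation p = 0.270). Within control embryos r was −0.88 for Cnot1 and −0.66 for Tut4, and within K36M ones −0.20 and −0.47, so that the pooled value of Cnot1 rested mostly on the control embryos. The number of genes above 0 in the library had r = −0.05 with Btg4 over the same embryos. Since TPM values of a library share 1 sum, a high share of some mRNAs lowers that of others.

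The genes whose embryo-to-embryo pattern was most like that of Btg4, among 9702 with a mean of at least 10 TPM in the embryos, were Trim61 (r = 0.91), Fhod3 (0.91), Ccdc186 (0.89), Cul1 (0.88) and C86187 (0.87). Their mean TPM in control FGOs and control embryos was 2035 and 1587 for Trim61, 346 and 454 for Fhod3, 812 and 838 for Ccdc186, 802 and 922 for Cul1, and 2669 and 1402 for C86187. All 5 were thus abundant in the oocyte as well.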

How the data were processed

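Total RNA of FGO pools and single embryos had been made into libraries with a SMART-Seq stranded kit. Reads were trimmed and aligned to mm10 by the authors with Hisat2, and those of ribosomal RNA were discarded. Gene counts came from featureCounts, and the authors deposited TPM values for 22 libraries. The annotation, gene lengths and strand setting behind these TPM values are not given in the sources used here, TPM keeps no depth, and the precision rests on the number of libraries. All 22 columns matched a labelled sample and no pair of libraries was identical.

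The tests were two-sided and made in limma 3.58.1 under R 4.3.3, using lmFit on log2(TPM + 1) and then eBayes with its trend option. Genes entered a fit where their TPM averaged 1 or more over its libraries. This replaced the count test of the study, since the table holds no counts. FGOs and embryos were fitted apart for genotype, and 1 fit of 21 libraries with 4 group means gave the stage changes and the interaction. Correlations used permutations in Python 3.11.15 with numpy 2.4.6 and scipy 1.17.1. The script was first tested on simulated data with known changes in few genes. Log2 changes of 1 and 2 were called in 53.2% and 89% of changed genes in the FGO genotype comparison. The shares were 3.61% and 23% for genotype in embryos, and 4.01% and 29.2% for the control stage change. A gene that is not called may thus still have changed.

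The members and the gene lists were chosen with earlier results of these data known. Named besides the members were H3f3b, the up to 2 most changed genes per direction called in the control stage comparison of each list, up to 5 listed genes per genotype comparison with an unadjusted p under 0.05 and groups apart, and the 5 genes most like Btg4. Alternatives changed the pseudocount (0.1), the genes (all above 0 in any library, or an average TPM of 5 or more), the scaling (quantile or median-of-ratios), the spread (without trend, or with array weights), the design (a replicate block, or 1 genotype alone) and the libraries (each left out in turn, or replicate 4 added). Gene positions and transcript ends came from RefSeq (GRCm38.p6). Protein sequences and the chromatin and methylation files of the series were not used here.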

Additional observations from a re-analysis of the deposited data

Results flagged for a closer look

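Of 20 groups of gene and embryo values checked on the TPM scale for a single embryo far from the rest, 5 had one. The check was not made on the log2(TPM + 1) scale, and 2 of the flags fell on the same embryo. The number that chance would give is therefore not stated. Among control embryos, Cnot7 was 741 TPM in replicate 6, Dcp2 was 342 TPM in the same embryo and Dcp1a was 197 TPM in replicate 1. Among K36M oocyte-derived embryos, Tut7 was 143 TPM in replicate 2 and Pabpn1l was 61.3 TPM in replicate 3. All 5 were higher than the other embryos of their group.

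The control embryo left out of the comparisons, replicate 4, was above all other control embryos for Btg4 at 4947 TPM against at most 2409, for Cnot6l at 312 against at most 252, for Cnot7 at 824 against at most 741 and for Dcp2 at 398 against at most 342. For Btg4, Cnot6l, Cnot7 and Dcp2 it was also above all control FGO libraries. Its summed two-cell markers were 269 TPM, below the 369 to 1872 TPM of the other control embryos, and its oocyte markers summed to 2092 TPM, above their 671 to 2000 TPM.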

How the results depend on the processing

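Stage calls were counted under 31 settings. The members called stayed at 5 to 7 of 10 in controls and 5 to 6 in K36M when each library was left out, and the other decay genes at 20 to 33 and 24 to 34. Over all genes, leaving out each library gave 2844 to 4930 calls in controls, beside 4615 with every library kept. In K36M it gave 3421 to 5365 calls, beside 5094. Array weights raised the counts to 8 of 10 (3 higher, 5 lower) and 57 decay genes (32 higher, 25 lower) in controls, and to 8 of 10 (2 higher, 6 lower) and 54 (26 higher, 28 lower) in K36M. Over all 17358 genes, array weights raised the calls from 4615 to 9730 in controls and from 5094 to 8527 in K36M. The cause was not tested. Genotype and interaction calls of members stayed at 0 throughout, though over all genes above 0 the interaction called 13 genes. Small estimates changed sign, none of them called: the genotype change of Cnot6l in FGOs with array weights (0.000155; −0.0579 to 0.0266 leaving out each library), in embryos that of Btg4 with replicate 4 added (−0.10; −0.00355 to 0.39 leaving one out) and of Cnot7 with replicate 4 added (−0.12) or with the replicate block (−0.0188; −0.11 to 0.28 leaving one out). The control stage change of Zfp36l2 was 0.43 with the replicate block (−0.37 to 0.074 leaving one out). The interaction of Btg4 was −0.0103 with replicate 4, that of Cnot1 0.0327 with median-of-ratios scaling (−0.27 to 0.00388), that of Tut4 0.0267 with quantile normalization, 0.0647 with median-of-ratios scaling and 0.19 with the replicate block (−0.31 to 0.19), that of Dcp2 0.0542 with median-of-ratios scaling and 0.0853 with array weights (−0.22 to 0.0614), and that of Pabpn1l −0.00632 to 0.88 leaving one out. Calls were gained in controls by Cnot6l with quantile normalization (adjusted p = 0.0363) and median-of-ratios scaling (0.0216), and by Cnot7 with the latter (0.0292), and with array weights by both and by Cnot1 (0.00645). In K36M, Tut7 gained a call with all genes above 0 (0.0364), a mean TPM of at least 5 (0.0491) and quantile normalization (0.0409), and with array weights Cnot7 (0.0214), Zfp36l2 (0.0114) and Tut7 (0.0115) did.

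Whether libraries with the same replicate number form pairs was not tested, and so few of them cannot decide it. Deviations of same-numbered libraries correlated by 0.0145 to 0.101 in 3 FGO pairs, of which 2 correlated best with their own number. In 7 embryo pairs the correlations were −0.101 to 0.0968, and 1 pair correlated best with its own number. With the replicate block, 5 of 10 members were called in each stage comparison, with 27 and 29 other decay genes, and 0 in the genotype and interaction tests. Over all genes, 3887 of 17358 were called with the block in controls and 4199 of 17358 in K36M, and 0 in the genotype and interaction tests. Of the other decay genes named for controls, Cnot4 (adjusted p = 0.0599), Tent5a (0.0502) and Cnot8 (0.0793) were not called with the block.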
